A study of Homo sapiens with 6 samples.

Results

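The 42 genes described here act at the passage from G2 into mitosis and during mitosis itself. They were chosen by symbol for their known functions, as cyclins, kinases, checkpoint proteins, kinetochore proteins, kinesins and other mitotic proteins, and all 42 were matched in the count table. The choice was made with earlier results of these data known. All 42 had at least the minimum of 10 reads over the 6 libraries, so none was lost, and they were part of 23345 genes tested. The cells were HEK293T, a human embryonic kidney line that carries the SV40 large T antigen, a viral protein that binds RB and p53. 3 libraries (sh-control) came from cells expressing a control short-hairpin RNA and 3 (sh-RREB1) from cells expressing a hairpin against RREB1, a zinc finger transcription factor. Both kinds of cell were grown in DMEM with 10% FBS without further treatment, and total RNA was sequenced with strand-specific libraries. The hairpins were delivered by lentivirus and the cells selected as stable lines, and whether a line was 1 clone is not stated. Nothing in the labels says that the libraries of a group came from separate cultures, so p-values measure the spread between these libraries, which may be technical.

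Entry into mitosis is driven by CDK1 bound to cyclin B, which the CDC25 phosphatases switch on and which the Polo and Aurora kinases reinforce. Most such genes are transcribed late in the cell cycle, when B-MYB (MYBL2) and FOXM1 join the MuvB complex at CHR elements in promoters. Many promoters of these genes also hold CCAAT elements. In G0 and early G1 the DREAM complex holds the promoters of these genes silent. Large T antigen is known to disturb that repression. The proteins are then removed in order by the anaphase-promoting complex (APC/C), a ubiquitin ligase. The mRNAs are therefore commonly read as a measure of the share of cells that divide. In RNA from a bulk culture, fewer cells in G2 and mitosis and less of the RNA in each cell cannot be told apart.

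Reads on the strand of the gene numbered from 23362197 to 33044061 in sh-control and from 12257054 to 26145878 in the libraries labelled sh-RREB1. The smallest library, sh-RREB1 replicate 3, stood apart, with 52.1% of its aligned reads at more than 1 position against 3.66% to 7.63% in the other libraries. It also had 3923750 reads on the strand opposite to genes, beside its 12257054 on the strand of the gene. The other libraries had 1207964 to 1718516 opposite reads, beside 23362197 or more on the strand of the gene. RREB1 (ENSG00000124782) checks the labels. It was at 27.1, 25.2 and 26.6 CPM (reads per 1000000 reads, scaled by the TMM method) in sh-control replicates 1, 2 and 3 and at 23.7, 24.6 and 23.1 CPM in sh-RREB1 replicates 1, 2 and 3, and its log2 difference was −0.14 (standard error 0.13, edgeR adjusted p = 0.485). RREB1 was thus lower in each library labelled sh-RREB1, but by less than the test could separate from the spread, and every direction given below rests on the labels. Of the markers of HEK293 cells, VIM, KRT8, KRT18, NEFL and NEFM were at 11.5 CPM or more in every library, LHX1 was between 1.22 and 2.41 CPM and PAX2 was no higher than 0.476 CPM. Among markers of other cell types, PTPRC, CD3E and APOA1 had too few reads to be tested, ALB and DCN were no higher than 0.649 CPM, and COL3A1 was between 2.38 and 8.44 CPM with overlapping groups. COL1A1, a fibroblast marker, was at 0.348 to 0.685 CPM in sh-control and, without overlap, at 0.951 to 2.64 CPM in those labelled sh-RREB1 (edgeR adjusted p = 0.0132). VIM was also higher there without overlap, by 0.75 on the log2 scale (edgeR adjusted p = 0.00391). With the GC trend described below removed, COL1A1 was at 1.17 and VIM at 0.68. Their part in the levels of the mitotic genes was not tested. In each library below, values are listed in the order of replicates 1, 2 and 3.

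Most of the mitotic genes had lower levels in libraries labelled sh-RREB1. The 42 genes together took 13093, 12878 and 12457 CPM in the sh-control libraries, against 7971, 7967 and 7739 CPM in those labelled sh-RREB1. The summed level was 12809 ± 324 CPM (SD, n = 3) against 7892 ± 133 CPM (SD, n = 3), that is 61.6% of sh-control, and the groups did not overlap. TOP2A and CENPF gave the largest shares of that sum. Of the 42 genes, 35 had a log2 fold change below 0 and 7 above 0, with a median of −0.60, beside a median of 0.01 over all 23345 genes tested. The groups did not overlap in 31 genes that were lower and in 4 that were higher. Over all genes tested, 20.0% did not overlap and were lower and 21.1% did not overlap and were higher.

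At an adjusted p below 0.05 (edgeR's quasi-likelihood test, Benjamini-Hochberg adjustment over all genes tested), 26 of the 42 genes (61.9%) were lower and 1, MYBL2, was higher. Of all genes tested, 8.81% passed as lower and 10.8% as higher. Of the 14507 genes with a mean of at least 1 CPM, 1918 (13.2%) passed as lower and 2172 as higher. The study's thresholds were stricter, with a limit of 0.01 on the adjusted p and a log2 fold change beyond 1 in either direction. By them 5 genes were called lower (CDC25C, KIF14, NUF2, HMMR and AURKA) and MYBL2 was called higher, against 0.698% of all genes called lower and 2.71% called higher. TOP2A, CENPF and NDC80 passed the adjusted p and lay just short of the required fold, at −0.96, −0.98 and −0.98. The count of called genes depended on single libraries. It was 6, 0 and 9 when sh-control replicate 1, 2 or 3 was left out, and 1, 4 and 0 when replicate 1, 2 or 3 of sh-RREB1 was. The count at an adjusted p below 0.05 ran from 19 to 28 in the same 6 fits, and the median log2 fold change of the 42 genes from −0.68 to −0.59. Without sh-RREB1 replicate 3, the library with many multiply aligned reads, the median was −0.59 and the log2 fold changes of the genes called were −1.17 for CDC25C, −1.19 for KIF14, −1.17 for NUF2, −1.24 for HMMR, −1.01 for AURKA and 1.74 for MYBL2, with edgeR adjusted p from 0.0192 to 0.0285.

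**Figure D1:**
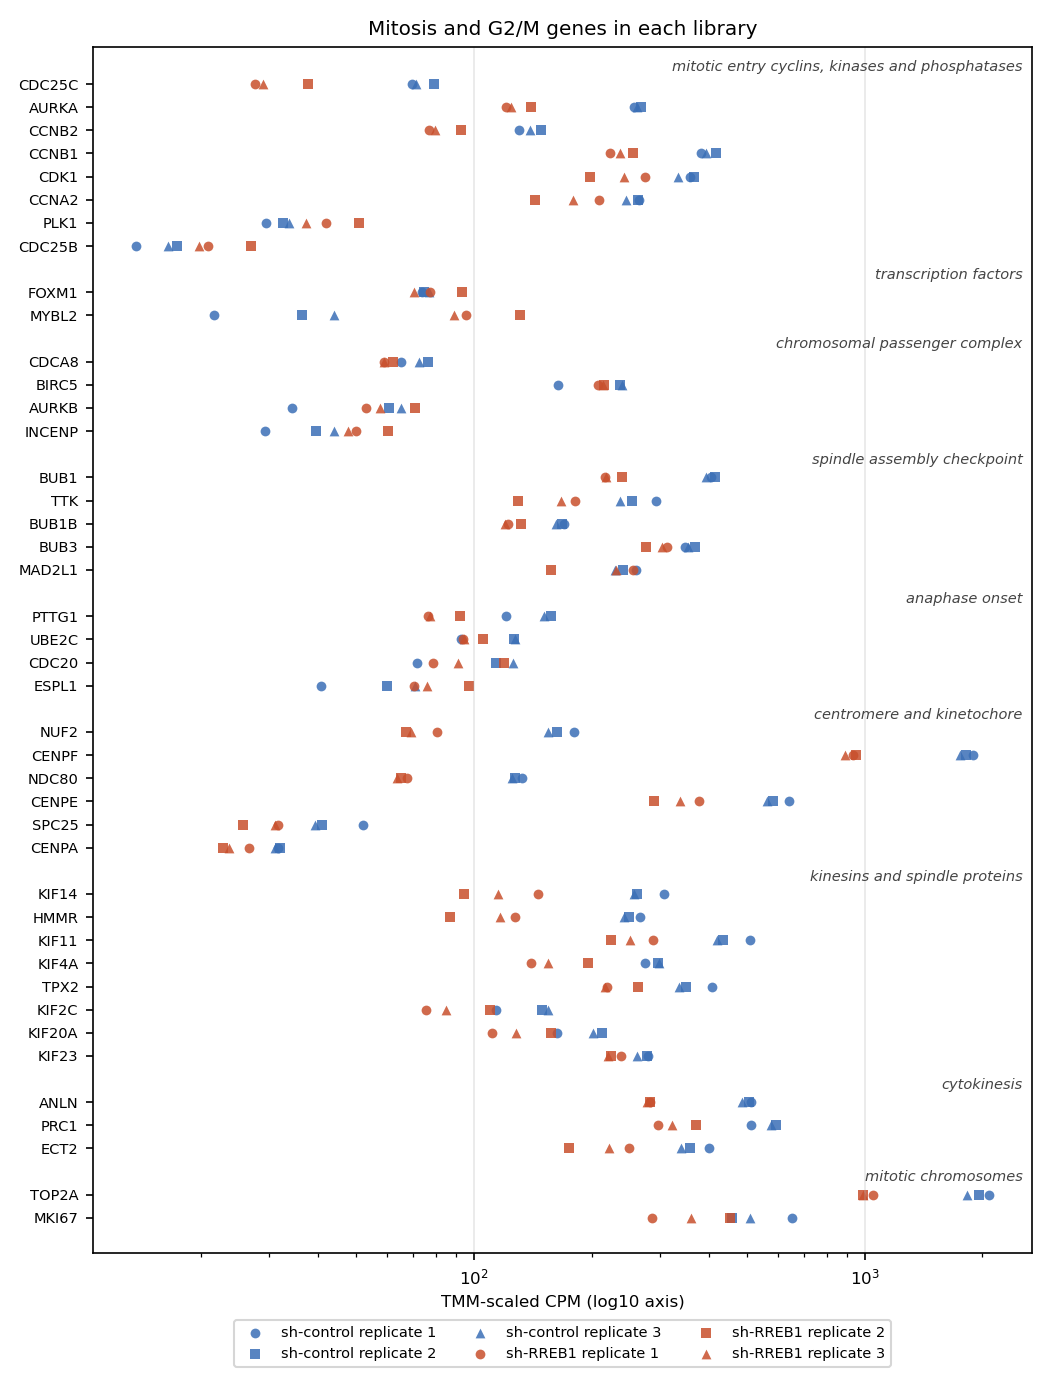
TMM-scaled CPM of each of the 42 genes (rows, grouped by role) in each of the 6 libraries, on a log10 axis. Blue marks are sh-control and red marks sh-RREB1, with a shape for each replicate. In 31 rows every red mark lies to the left of every blue mark, and in 4 rows (PLK1, CDC25B, MYBL2 and INCENP) every red mark lies to the right.

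The fold change of genes in these libraries followed the GC content of their exons, so each value was set beside genes of like composition. The 42 genes had a median exonic GC content of 44.9%, compared to 46.8% for the 14507 genes with a mean of at least 1 CPM. Among those expressed genes the median log2 fold change was −0.25 between 40% and 44% GC and 0.85 at 56% GC or more. Between 36% and 40% GC 23.7% of them passed an adjusted p of 0.05 as lower, beside 6 of 7 mitotic genes. Between 40% and 44% GC it was 25.7%, beside 9 of 11, and at 56% GC or more 0.759%, beside 0 of 5. Of the 42 genes, 39 lay below the median of the expressed genes in their own GC class. In the classes from 40% to 48% GC that was so for all 18, while the exceptions were MAD2L1 at 38.0%, ESPL1 at 55.3% and MYBL2 at 60.6% GC. When each library's trend on GC content and length was removed, 39 of the 42 genes were lower, with a median log2 fold change of −0.52 beside −0.03 over all genes tested. Then 27 passed an adjusted p of 0.05 as lower, beside 11.7% of all genes tested, and MYBL2 again as higher. In 23 genes the test passed as lower with and without the trend. Of the 6 genes called, 1, CDC25C, still passed both strict thresholds. KIF14 (−0.99), HMMR (−0.94), AURKA (−0.94) and NUF2 (−0.92) then passed the adjusted p and lay just short of the required fold, and MYBL2 was at 0.74. The groups differ in their trends, so this fit can also remove a change that truly follows GC content.

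Libraries of 1 group differed along the same axis. Across the 42 genes, the log2 ratio of sh-control replicate 1 to the mean of replicates 2 and 3 fell with GC content (Spearman's rho −0.75), and that of sh-RREB1 replicate 2 to the other 2 libraries of its group rose with it (rho 0.81). In sh-control replicate 1 the median of that ratio was −0.48 for the 12 mitotic genes at 50% GC or more and 0.12 for the 18 genes below 42%. In sh-RREB1 replicate 2 it was 0.36 and −0.27. The fold change between the groups had a rho of 0.69 with GC content over the 42 genes, and of 0.37 with the trend removed. These are descriptions over genes of the same libraries, which share their depth and composition.

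**Figure D2:**
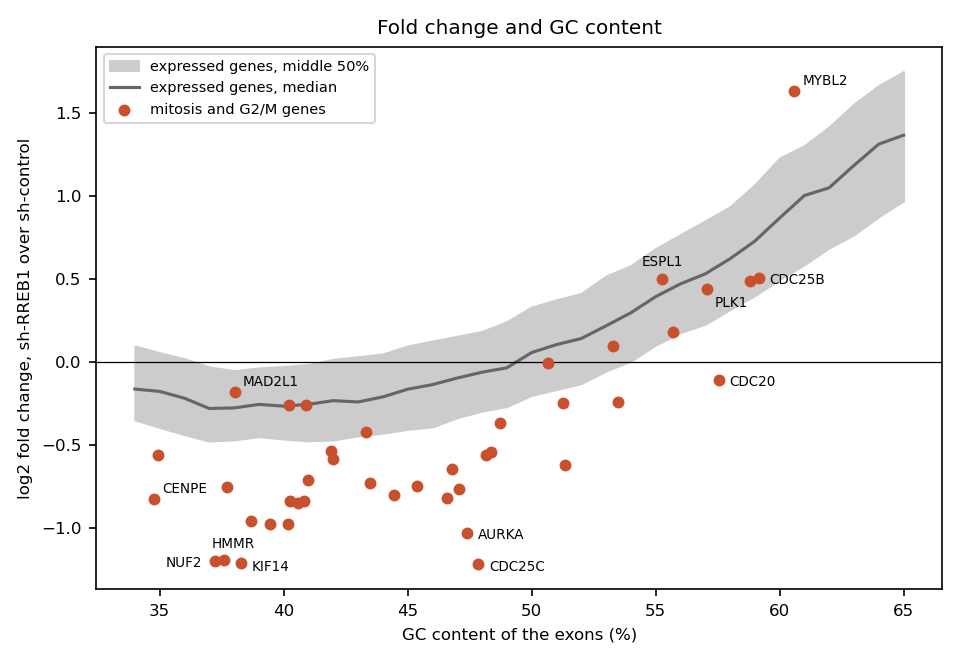
Log2 fold change, sh-RREB1 over sh-control, against the GC content of the exons in percent. The line and the grey band are the median and the middle 50% of expressed genes in sliding classes of GC content, and red points are the 42 mitotic genes. Most of the points lie below the line, and MYBL2, far above it, is the highest point.

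The genes that switch on mitotic entry were lower except for 2 of them. CDC25C (chr5:138285269-138338355, minus strand, GRCh38), a phosphatase that activates CDK1, was the gene with the largest fall of the 42. It read 69.4, 79.0 and 71.2 CPM in the sh-control libraries, against 27.6, 37.6 and 28.9 CPM in those labelled sh-RREB1. All 3 libraries labelled sh-RREB1 lay far below the lowest sh-control library, and the log2 fold change was −1.22 (95% confidence interval −1.56 to −0.88, edgeR adjusted p = 0.00312). It was −1.15 with the GC trend removed. On the strand opposite CDC25C, 40 to 84 reads were counted in each library. AURKA (chr20:56369389-56392337, minus strand), the Aurora kinase of the centrosomes, was at 257, 268 and 262 CPM against 121, 140 and 125 CPM, with a log2 fold change of −1.03 (interval −1.26 to −0.80, edgeR adjusted p = 0.00174). In other words its level was 49.0% of sh-control, with little spread inside either group.

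CCNB1 (chr5:69167135-69178245, plus strand), which encodes cyclin B1, had the highest level per kilobase of this group, 163 ± 7.23 reads per kilobase per 1000000 (SD, n = 3) in sh-control and 98.1 ± 6.64 (SD, n = 3) in the libraries labelled sh-RREB1. In CPM it went from 381, 416 and 392 to 224, 256 and 237, a log2 change of −0.73 (edgeR adjusted p = 0.00391). CCNB2, another B-type cyclin, was close to it at −0.75. CDK1 (chr10:60778331-60794852, plus strand), the kinase that these cyclins activate, was at 357, 366 and 332 CPM in the sh-control libraries, against 275, 198 and 242 CPM in those labelled sh-RREB1. The decrease of CDK1, −0.56 (edgeR adjusted p = 0.0204), was smaller than that of cyclin B1, although the difference between the 2 genes was not tested. CCNA2, the cyclin of S phase and G2, had a log2 fold change of −0.54, and −0.28 with the GC trend removed, which did not pass (edgeR adjusted p = 0.0627).

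PLK1 and CDC25B were the exceptions. PLK1 (chr16:23677656-23690367, plus strand), the Polo kinase, was at 29.5, 32.5 and 33.7 CPM in the sh-control libraries, against 41.8, 50.8 and 37.2 CPM in those labelled sh-RREB1. The groups did not overlap, but the log2 fold change of 0.44 (interval 0.10 to 0.78) did not pass (edgeR adjusted p = 0.0697). Its exons have 57.1% GC, and with the trend removed the value was −0.18 (edgeR adjusted p = 0.398). CDC25B, at 59.2% GC, likewise went from 0.51 to −0.30. The direction of these 2 genes therefore depends on the treatment of GC content, and neither passed the test in either fit.

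Of the pair of transcription factors of the program, 1 passed the test, as higher. MYBL2 (chr20:43667019-43716495, plus strand), which encodes B-MYB, was at 21.7, 36.4 and 43.8 CPM in the sh-control libraries, against 95.7, 131 and 88.8 CPM in those labelled sh-RREB1. The lowest library labelled sh-RREB1 was above the highest sh-control library, and the level was 310% of sh-control (log2 fold change 1.63, interval 1.05 to 2.21, edgeR adjusted p = 0.00548). MYBL2 has the highest GC content of the 42 genes, 60.6%, and its increase was 0.74 with the trend removed (edgeR adjusted p = 0.000242). Sh-control replicate 1 was the lowest library, and without it the log2 fold change was 1.36 (edgeR adjusted p = 0.00115). FOXM1 (chr12:2857680-2877174, minus strand), a forkhead factor that acts at the same promoters, was at 73.6, 74.7 and 76.9 CPM against 77.1, 93.4 and 70.2 CPM. The FOXM1 groups overlapped, and its interval ran from −0.19 to 0.39 around 0.10 (edgeR adjusted p = 0.644).

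Known elements of late cell cycle promoters were searched for in the stretch from 250 bases before to 50 bases after each gene's RefSeq start (GRCh38.p14), on both strands. The CCAAT element was searched as CCAAT, which reads ATTGG on the other strand. The CHR element was searched as TTTGAA, which reads TTCAAA on the other strand. A related hexamer, TTTAAA, is its own reverse complement. The 2 strands of CCAAT can overlap in CCAATTGG. A window was found for 35 of the 42 genes, and AURKA, BIRC5, BUB3, FOXM1, TPX2, TTK and UBE2C had none. Only the first window listed for each gene was searched, so elements at any other start of a gene were missed. TTTGAA occurred in 24 of the 35 windows (68.6%), beside 15.4% of the 27305 windows of all genes. CCAAT occurred in 26 (74.3%), beside 35.7%, and both together in 20 (57.1%), beside 6.08%. Among other genes of mitosis TTTGAA occurred in 38 of 96 windows (39.6%), and among genes of DNA replication and G1/S in 1 of 34. Those matches are letters in a window and not measured binding sites.

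The windows below belong to 3 genes called lower, to MYBL2, which was called higher, and to CCNB1 and PLK1, whose log2 fold changes lay on opposite sides of 0 before the GC trend was removed. Capitals mark the matches, and positions count from the RefSeq start as 1, with the base before it as −1. NUF2 (chr1:163321704-163322003, plus strand) holds TTTGAA at 17. HMMR (chr5:163460382-163460681, plus strand) holds TTTGAA at −28 and −22 and CCAAT, on either strand, 5 times between −177 and −66. KIF14 (chr1:200620702-200621001, minus strand) holds CCAAT at −22, TTCAAA at 2 and TTTAAA at −198. CCNB1 (chr5:69166900-69167199, plus strand) holds CCAAT at −87 and −55 and TTTAAA at −30. PLK1 (chr16:23678639-23678938, plus strand) holds CCAAT at −73, TTTGAA at −29 and TTTAAA at −148 and −88. MYBL2 (chr20:43666864-43667163, plus strand) holds none of these letters. The sequences, 5′ to 3′ on the strand of the gene, are as follows.
NUF2: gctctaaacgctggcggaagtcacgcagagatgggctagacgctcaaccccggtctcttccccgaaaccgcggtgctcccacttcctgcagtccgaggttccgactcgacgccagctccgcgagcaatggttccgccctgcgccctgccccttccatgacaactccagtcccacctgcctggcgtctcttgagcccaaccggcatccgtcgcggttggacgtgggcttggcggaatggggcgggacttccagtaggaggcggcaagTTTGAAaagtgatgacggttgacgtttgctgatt
HMMR: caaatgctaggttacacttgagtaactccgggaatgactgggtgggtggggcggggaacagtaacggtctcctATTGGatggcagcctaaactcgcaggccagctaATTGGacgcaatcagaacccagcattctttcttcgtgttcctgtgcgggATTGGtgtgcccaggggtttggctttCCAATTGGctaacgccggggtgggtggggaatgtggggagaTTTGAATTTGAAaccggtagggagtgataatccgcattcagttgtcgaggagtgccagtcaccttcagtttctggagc
KIF14: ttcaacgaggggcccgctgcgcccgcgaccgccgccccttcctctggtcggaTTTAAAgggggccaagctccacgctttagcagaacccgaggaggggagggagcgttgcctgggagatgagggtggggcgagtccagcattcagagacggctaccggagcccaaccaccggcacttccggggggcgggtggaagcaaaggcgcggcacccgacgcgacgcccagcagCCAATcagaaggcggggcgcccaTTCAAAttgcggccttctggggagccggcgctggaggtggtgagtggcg
CCNB1: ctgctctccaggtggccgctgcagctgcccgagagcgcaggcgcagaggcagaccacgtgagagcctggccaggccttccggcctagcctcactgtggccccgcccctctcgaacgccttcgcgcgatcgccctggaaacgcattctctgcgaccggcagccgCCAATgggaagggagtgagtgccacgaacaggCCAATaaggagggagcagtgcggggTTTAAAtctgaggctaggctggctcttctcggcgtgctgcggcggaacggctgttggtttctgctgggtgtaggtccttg
PLK1: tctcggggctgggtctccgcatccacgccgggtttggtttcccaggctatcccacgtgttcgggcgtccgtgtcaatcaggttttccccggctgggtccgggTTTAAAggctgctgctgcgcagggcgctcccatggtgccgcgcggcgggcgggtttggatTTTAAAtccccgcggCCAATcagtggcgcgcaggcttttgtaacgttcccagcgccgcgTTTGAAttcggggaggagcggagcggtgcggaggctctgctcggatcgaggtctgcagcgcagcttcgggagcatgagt
MYBL2: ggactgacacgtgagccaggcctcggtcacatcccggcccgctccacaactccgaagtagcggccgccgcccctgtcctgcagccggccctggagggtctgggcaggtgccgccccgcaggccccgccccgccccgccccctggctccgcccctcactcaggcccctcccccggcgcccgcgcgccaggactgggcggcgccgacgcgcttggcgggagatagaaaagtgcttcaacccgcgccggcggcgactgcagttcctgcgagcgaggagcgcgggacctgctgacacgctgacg

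The decrease was found in genes with and without TTTGAA in the window searched. The 24 genes with TTTGAA had a median log2 fold change of −0.67 and the 11 without it of −0.62. Among the 11, CCNB1, CENPE, KIF20A, KIF2C and PTTG1 hold the related hexamer TTTAAA, so the 11 are not free of letters of this kind. The exons of the genes with and without TTTGAA differed in composition, with median GC contents of 41.4% and 47.9%. PLK1 shares TTTGAA and CCAAT with HMMR and KIF14, and its log2 fold change of 0.44 did not pass and was −0.18 with the GC trend removed. For CCAAT the medians were −0.57 with it (26 genes) and −0.83 without it (9 genes). CDC25C, whose level fell most, had none of the 3 elements in the window searched. That window lies at the far 5′ end of the annotated gene. Any other start of CDC25C was not searched, so its promoter cannot be said to lack the elements.

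With condition as the only term and no trend removed, no member of the chromosomal passenger complex passed an adjusted p of 0.05. This complex of Aurora B kinase with 3 partners corrects faulty attachments of chromosomes to the spindle. AURKB (chr17:8204733-8210600, minus strand), the kinase, was at 34.3, 60.6 and 65.1 CPM in the sh-control libraries, against 53.0, 70.9 and 57.4 CPM in those labelled sh-RREB1. BIRC5 (survivin) was at 164, 236 and 240 CPM against 207, 215 and 214 CPM. In both genes sh-control replicate 1 was the lowest library, the groups overlapped, and the log2 fold changes were 0.18 (edgeR adjusted p = 0.637) and −0.01 (edgeR adjusted p = 0.977). INCENP, the scaffold of the complex, was at 29.2, 39.4 and 43.9 CPM against 49.9, 60.4 and 47.6 CPM, without overlap, a log2 fold change of 0.49 that did not pass (edgeR adjusted p = 0.0823). CDCA8 (borealin) was at −0.25. With the GC trend removed the 4 genes lay between −0.33 and −0.06, and CDCA8 alone of the 4 then passed an adjusted p of 0.05 (edgeR adjusted p = 0.016). The summed level of the complex was 102.6% of sh-control.

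Of the spindle assembly checkpoint, which delays anaphase until all chromosomes are attached, 3 of 5 genes passed an adjusted p of 0.05, and all 5 had values below 0. BUB1 (chr2:110637528-110678063, minus strand), a checkpoint kinase, was at 405, 414 and 393 CPM in the sh-control libraries, against 217, 239 and 218 CPM in those labelled sh-RREB1. Its level was thus 55.6% of sh-control (log2 fold change −0.85, edgeR adjusted p = 0.00228), with the groups far apart. TTK (MPS1), the kinase that starts the signal, was at −0.71 and BUB1B (BUBR1) at −0.42. BUB3, the partner of both BUB proteins, was at −0.26 and MAD2L1 (MAD2), which holds CDC20, at −0.18, and neither passed the test. With the GC trend removed BUB3 and MAD2L1 were at −0.04 and 0.05, and BUB1B, at −0.22, no longer passed (edgeR adjusted p = 0.0732).

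With no trend removed, genes of anaphase onset were divided. PTTG1 (chr5:160421855-160428739, plus strand), which encodes securin, the inhibitor of separase, was at 121, 157 and 151 CPM in the sh-control libraries, against 76.4, 92.1 and 77.2 CPM in those labelled sh-RREB1. The log2 fold change was −0.80 (edgeR adjusted p = 0.00709). Reads that align equally well to PTTG1 and to a near-identical copy are counted for neither. The copies PTTG2 and PTTG3P had 4 reads at most in any library, which does not show how many reads PTTG1 lost. UBE2C, the ubiquitin-conjugating enzyme of the APC/C, had the highest level per kilobase in this group and was at 92.8, 127 and 127 CPM against 93.7, 106 and 94.3 CPM. The groups overlapped for UBE2C, and its log2 fold change of −0.24 did not pass (edgeR adjusted p = 0.277). CDC20, the activator of the APC/C, was at −0.11 and ESPL1 (separase) at 0.50, and the libraries of both groups overlapped in each. CDC20 has 57.6% GC and moved to −0.70 with the trend removed (edgeR adjusted p = 0.000232). UBE2C then passed too, at −0.46, and PTTG1 still passed, at −0.61 (edgeR adjusted p = 0.00443). ESPL1, with 55.3% GC, was then at 0.05 and did not pass (edgeR adjusted p = 0.739).

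The centromere and kinetochore genes, whose products tie chromosomes to microtubules, had the lowest summed level relative to sh-control, 2785 ± 134 CPM (SD, n = 3) in sh-control against 1450 ± 57.9 CPM (SD, n = 3), or 52.1% of sh-control. CENPF (chr1:214603185-214664574, plus strand), a large coiled-coil protein of the outer kinetochore, gave most of it, with 1894, 1811 and 1757 CPM against 934, 949 and 889 CPM. That is 50.7% of sh-control (log2 fold change −0.98, interval −1.19 to −0.77, edgeR adjusted p = 0.0017). NUF2 (chr1:163266576-163355764, plus strand), a subunit of the Ndc80 complex, was at 180, 163 and 154 CPM against 80.7, 67.0 and 69.2 CPM, with a log2 fold change of −1.20 (interval −1.47 to −0.93, edgeR adjusted p = 0.00174). NUF2 was called in 4 of the 6 fits that left out a library, more often than any other of the 42 genes. CENPE, the kinesin of the kinetochore, was at −0.83, SPC25 at −0.59 and CENPA, the histone H3 variant of the centromere, at −0.37, which did not pass (edgeR adjusted p = 0.0809). SPC25 was at −0.31 with the GC trend removed and did not pass then (edgeR adjusted p = 0.0508).

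The Ndc80 complex joins 4 proteins in 1 rod that binds microtubules, and its genes went in opposite directions. Per kilobase and 1000000 reads, NDC80 went from 36.2 to 18.4, NUF2 from 49.3 to 21.5 and SPC25 from 24.1 to 16.1. SPC24, which was not among the 42 genes, went from 11.0 to 29.1 on the same scale. In CPM it was at 21.0, 35.1 and 37.4 in the sh-control libraries, against 76.8, 88.9 and 81.9 in those labelled sh-RREB1, which did not overlap. The log2 fold change was 1.40 (interval 0.93 to 1.87, edgeR adjusted p = 0.00473), and it remained 1.18 with the GC trend removed. The exons of SPC24 have 53.5% GC, and those of NUF2, NDC80 and SPC25 are poorer in GC, with 37.2% in NUF2. Thus in sh-control SPC24 had the lowest level of the 4 subunits, and in the libraries labelled sh-RREB1 the highest mean.

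All 8 kinesins and spindle proteins were lower without overlap, and 7 passed an adjusted p of 0.05. KIF14 (chr1:200551497-200620751, minus strand), a kinesin of the midzone and midbody, was at 306, 262 and 257 CPM in the sh-control libraries, against 146, 94.5 and 115 CPM in those labelled sh-RREB1. HMMR (chr5:163460203-163491941, plus strand), a microtubule-associated protein of the spindle, was at 266, 250 and 242 CPM against 127, 86.8 and 117 CPM. Both were called lower, KIF14 at −1.21 (interval −1.58 to −0.84, edgeR adjusted p = 0.0037) and HMMR at −1.19 (interval −1.53 to −0.86, edgeR adjusted p = 0.00316), and in both sh-RREB1 replicate 2 was the lowest library. TPX2, which activates Aurora A on the spindle, had the highest level per kilobase of the group and was at 406, 349 and 336 CPM against 219, 262 and 217 CPM, with a log2 change of −0.64 (edgeR adjusted p = 0.00995). KIF11 (Eg5), the motor that separates the spindle poles, was at −0.84. The chromokinesin KIF4A was at −0.82, the depolymerase KIF2C (MCAK) at −0.62 and KIF20A (MKLP2) at −0.54. KIF23 (MKLP1) was at −0.26 and did not pass (edgeR adjusted p = 0.0897). With the GC trend removed KIF23 was at −0.01 (edgeR adjusted p = 0.961), and 7 of the 8 genes passed as lower. KIF4B, a near-identical copy of KIF4A, had 5 to 16 reads per library, which likewise does not show how many reads KIF4A lost.

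The 3 cytokinesis genes were lower by about the same factor. ANLN (chr7:36389821-36453791, plus strand), or anillin, the scaffold of the contractile ring, was at 513, 507 and 484 CPM in the sh-control libraries, against 283, 282 and 278 CPM in those labelled sh-RREB1. The libraries labelled sh-RREB1 lay close together for ANLN, at 281 ± 2.62 CPM (SD, n = 3), and the log2 fold change was −0.84 (edgeR adjusted p = 0.00205). PRC1, which bundles the microtubules of the midzone, was at 512, 593 and 576 CPM against 297, 370 and 322 CPM (−0.77, edgeR adjusted p = 0.00528). ECT2, the exchange factor that turns on RhoA at the cleavage site, was at −0.76. With the GC trend removed these 3 genes were at −0.58, −0.71 and −0.52.

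TOP2A and MKI67, common markers of dividing cells in tissue, act on mitotic chromosomes. TOP2A (chr17:40388525-40417896, minus strand), the topoisomerase that separates sister DNA molecules, had the highest level of the 42 genes per kilobase, 307 ± 19.9 (SD, n = 3) in sh-control, which was above 99.4% of expressed genes. It was at 2083, 1966 and 1830 CPM against 1052, 987 and 993 CPM, or 51.6% of sh-control (log2 fold change −0.96, interval −1.18 to −0.73, edgeR adjusted p = 0.00189). MKI67 (chr10:128096659-128126423, minus strand), which encodes Ki-67, a coat protein of mitotic chromosomes, was at 651, 456 and 509 CPM against 286, 451 and 360 CPM. The groups nearly touched for MKI67, where sh-RREB1 replicate 2 lay just below sh-control replicate 2, and the log2 fold change of −0.56 did not pass (edgeR adjusted p = 0.067). With the trend removed it was −0.59 (edgeR adjusted p = 0.0126).

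**Figure D3:**
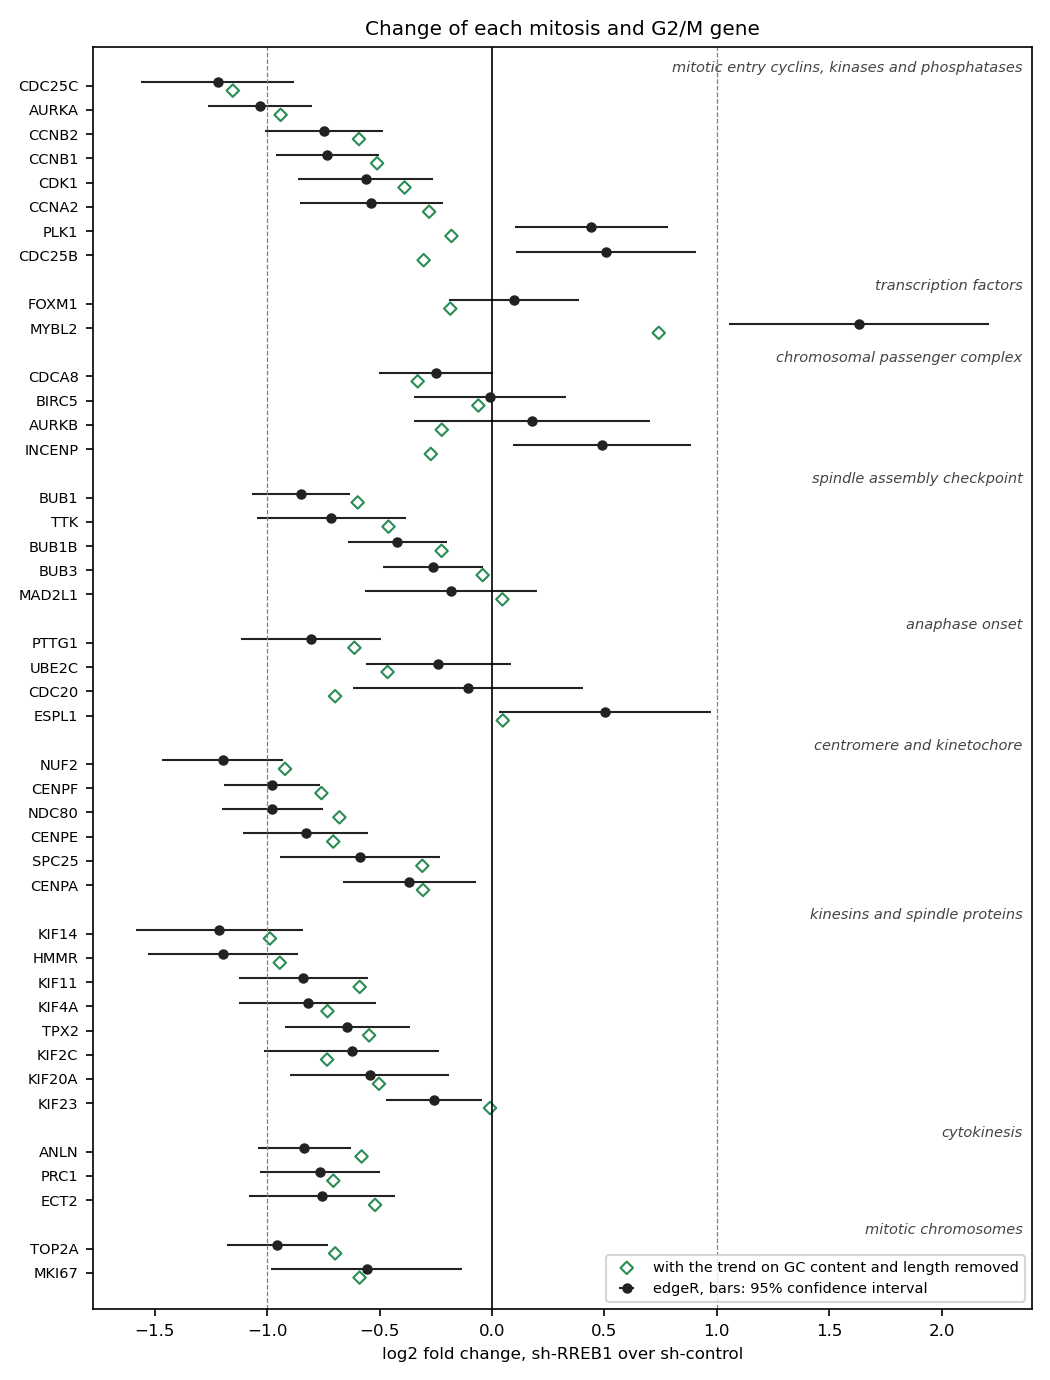
Log2 fold change of each of the 42 genes, sh-RREB1 over sh-control, grouped by role. Black points are the edgeR values with 95% confidence intervals, green diamonds the values with the trend on GC content and length removed, and dashed lines mark a log2 fold change of −1 and 1. The diamonds of PLK1, CDC25B, FOXM1, AURKB and INCENP lie left of 0 while their black points lie right of it, and MYBL2 stays right of 0 in both.

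By role, the summed levels, with no trend on GC content removed, separated the libraries for some groups of genes. They did not overlap between groups for mitotic entry genes (63.0% of sh-control), checkpoint genes (71.3%), kinetochore genes (52.1%), kinesins and spindle proteins (59.4%), cytokinesis genes (57.9%), mitotic chromosome genes (55.1%) and, in the other direction, the 2 transcription factors (170% of sh-control). The sums of the chromosomal passenger complex and of anaphase onset (85.2%) overlapped. In both of these, sh-control replicate 1 was the lowest sh-control library, with 77.9% and 77.6% of the sh-control mean. Median exonic GC content was 53.5% in the chromosomal passenger complex, 54.4% in anaphase onset and 56.9% in the 2 transcription factors. It was 39.8% to 46.4% in the roles that were lower without overlap. With the trend removed the median log2 fold changes of the passenger complex and anaphase onset were −0.25 and −0.54. MYBL2 went from a mean of 33.9 to 105 CPM and FOXM1 from 75.1 to 80.2 CPM. The part of GC content was not tested. Variation between libraries of a group was modest, with a median coefficient of variation over the 42 genes of 7.31% in sh-control and 12.6% in the libraries labelled sh-RREB1.

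**Figure D4:**
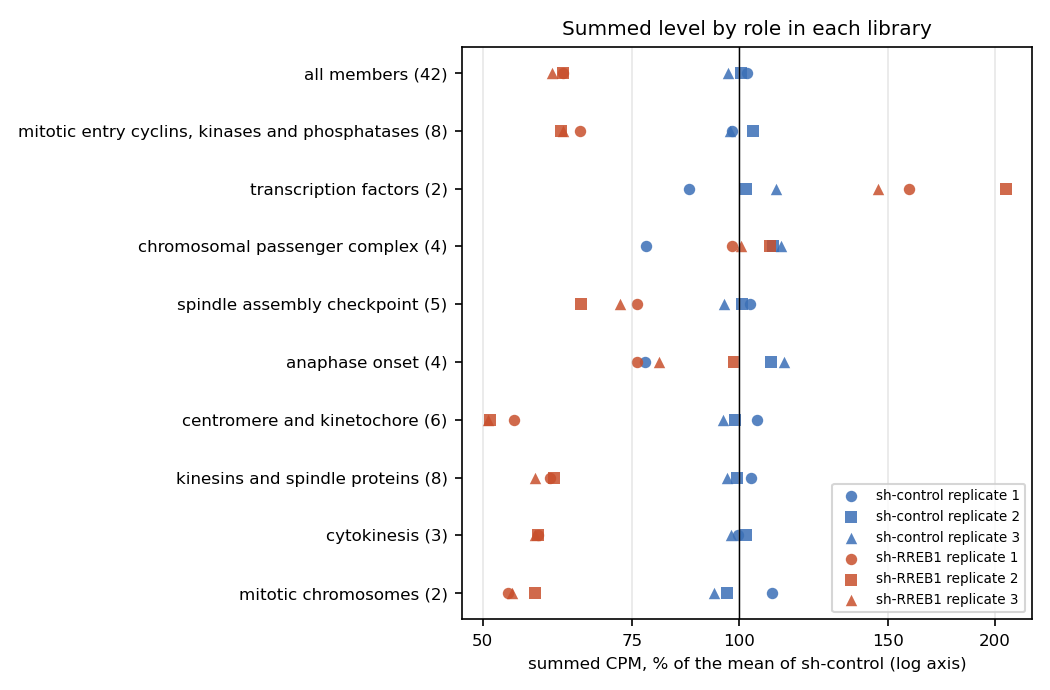
Summed CPM of the genes of each role in each library, as a percent of the mean of the 3 sh-control libraries, on a log axis (number of genes in brackets). Blue marks are sh-control and red marks sh-RREB1. The red marks of kinetochore genes lie between 50.8% and 54.5% and those of the transcription factors between 146% and 206%. Red and blue overlap for the chromosomal passenger complex and anaphase onset.

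Beyond the 42 genes, 108 further genes of mitosis were tested, in lists made by function. Their median log2 fold change was −0.38, with 80 of 108 below 0, and 49 (45.4%) passed an adjusted p of 0.05 as lower and 12 as higher, beside 8.81% and 10.8% of all genes tested. Condensins, which compact chromosomes, had a median of −0.48 (5 of 8 lower and NCAPH2 higher at an adjusted p below 0.05), and cohesin, which holds sisters together, and its regulators one of −0.46 (7 of 12 lower). Other spindle and cytokinesis genes had a median of −0.49 (12 of 22 lower, 3 higher), other G2/M regulators −0.45 (6 of 10 lower, 1 higher) and other kinetochore genes −0.38 (12 of 26 lower, 3 higher). APC/C genes had a median of −0.19, with 2 of 17 lower and 3 higher, and of the MuvB core 2 of 5 were lower (median −0.35). Among 8 inhibitors of mitotic entry the median was 0.38, with WEE1, CHEK1 and CHEK2 lower and PKMYT1 higher. With the GC trend removed the median of the 108 genes was −0.23, and 44 passed as lower and 9 as higher. Over all 23345 genes tested, 2730 (11.7%) then passed as lower and 2428 as higher. The medians of condensins (−0.46) and of the spindle and cytokinesis genes (−0.46) then moved little. Those of cohesin (−0.29), the other G2/M regulators (−0.22), the MuvB core (−0.20) and the other kinetochore genes (−0.14, with 8 of 26 lower) came nearer to 0, and those of the APC/C genes and of the inhibitors changed sign, to 0.04 and −0.21.

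At the strict thresholds 3 of the 108 genes were called, 1 lower and 2 higher. Of all genes tested, 0.698% were called lower and 2.71% higher, and no trait of the list is read from so small a count. KNL1, the kinetochore scaffold that binds the BUB proteins, was at 458, 388 and 369 CPM in the sh-control libraries, against 223, 171 and 191 CPM in those labelled sh-RREB1 (log2 fold change −1.05, edgeR adjusted p = 0.00335). SPC24, described above, and KIF18B, a kinesin that shortens astral microtubules, were called higher. KIF18B was at 12.3, 15.5 and 20.5 CPM against 34.5, 40.9 and 36.3 CPM (log2 fold change 1.21, edgeR adjusted p = 0.00632), with 58.4% GC and a value of 0.50 with the trend removed. KNL1 was then at −0.84 (edgeR adjusted p = 5.62e-05), and of the 3 genes SPC24 alone was still called. Without overlap in any of the 3, KNL1 moved with the kinetochore genes above and SPC24 and KIF18B against them.

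Genes of DNA replication and the G1/S transition, which E2F factors switch on earlier in the cycle, were divided about evenly, with 19 below 0 and 21 above. Their median log2 fold change was 0.04 over 40 genes. At an adjusted p below 0.05, 8 were lower (20%) and 5 higher, beside 8.81% and 10.8% of all genes tested. CCNE2, CDC6 and RRM1 were the lowest, at −0.66, −0.63 and −0.63, and these names were picked after their values were seen. UHRF1, an epigenetic regulator of replication, was the only one of the 40 called, beside 2.71% of all genes tested called higher. Its level was 24.5, 27.4 and 32.7 CPM in the sh-control libraries, against 76.4, 61.6 and 60.7 CPM in those labelled sh-RREB1 (log2 fold change 1.23, edgeR adjusted p = 0.00335). UHRF1 was at 0.77 with the GC trend removed (edgeR adjusted p = 0.00506) and was no longer called. The median of the 40 genes was then −0.04, beside −0.52 for the 42 mitotic genes. Their median exonic GC content was 50.7%, beside 44.9%, and no test was made of the difference between the lists.

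**Figure D5:**
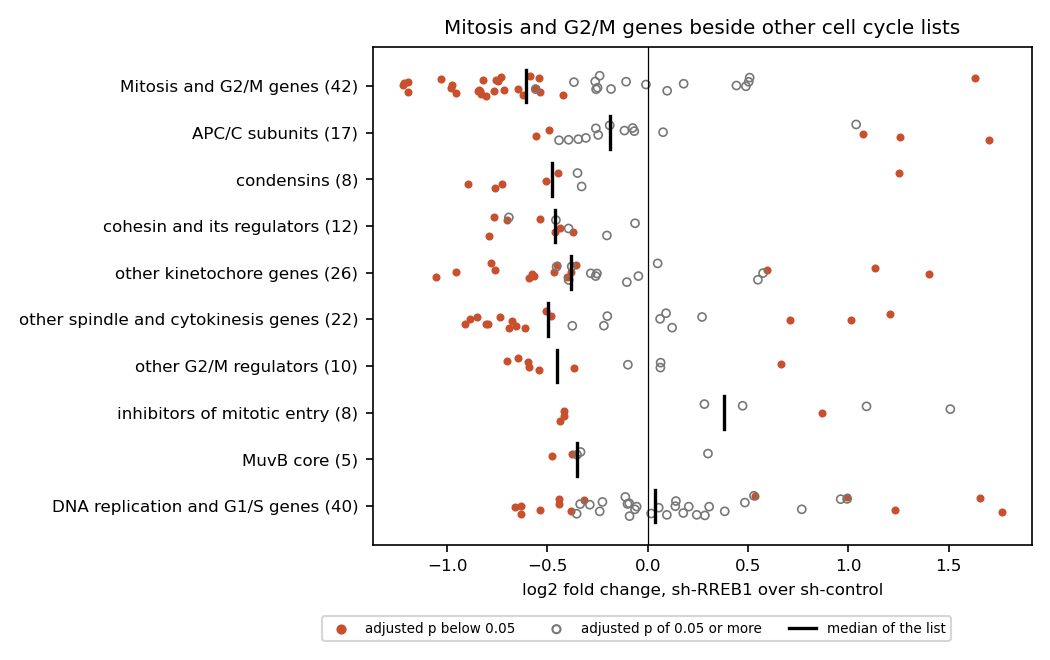
Log2 fold change, sh-RREB1 over sh-control, of every gene of the mitosis and G2/M list and of the other cell cycle lists (rows, with the number of genes). Filled red points passed an adjusted p of 0.05, open points did not, and the black bar is the median of the list. The bar of the 42 genes lies at −0.60 and that of the DNA replication and G1/S genes at 0.04.

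Most of the 42 genes were highly expressed. Per kilobase they lay between 4.07 (CDC25B) and 307 (TOP2A) reads per kilobase per 1000000 in sh-control, above 49.1% to 99.4% of expressed genes. Each had 250 reads or more in every library.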

How the data were processed

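RNA-seq libraries of HEK293T cells, 3 sh-control and 3 labelled sh-RREB1, were used. The authors aligned reads to hg38 with STAR and Gencode, and deposited the raw counts that STAR gave for every gene in each library, without normalization. Each table lists counts without regard to strand and counts for either strand. Sense-strand counts entered the analysis, as the kit is strand-specific. Lines of reads on no gene were excluded from tests and library sizes, and held 8853232 to 13201426 reads per library. A merged table held 24635 of the 58037 identifiers with the same counts as the library tables.

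For a symbol with several identifiers the one with the most reads was kept, and genes needed 10 reads over the 6 libraries. Groups were compared with edgeR 4.0.16 in R 4.3.3 (quasi-likelihood test, TMM, condition as the only term, Benjamini-Hochberg adjustment over 23345 genes). The study used DESeq2, which was run as an alternative (1.42.0). CPM are reads per 1000000 reads, TMM-scaled, and levels per kilobase divide them by exonic length. Length, GC content and coordinates came from Gencode release 44 on GRCh38, which gave a GC value for 99.8% of genes tested. Each library's trend on GC content and length (natural splines, 5 degrees of freedom) entered the model as an offset. Promoter windows came from RefSeq (GRCh38.p14), the first listed for each gene. Intervals are at 95%. Scripts were tested on simulated data.

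The 42 genes, the further lists and the tests were chosen with earlier results of these data known. Values by library are given for 8 genes chosen by name, for genes called, for the member of each role with the largest fold change or the highest level per kilobase, and for RREB1. Of the 108 further genes, those called are given. Precision is limited by 3 libraries per group and by 12257054 to 33044061 reads on genes per library. Alternatives were DESeq2, other scalings and filters, both strands, every identifier kept, the merged table, other thresholds, the replicate number as a block, the GC and length offset and each library left out in turn. Leaving out libraries together with the offset was added after the data had been seen. Some cell type markers are not reported here.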

Additional observations from a re-analysis of the deposited data

How the results depend on the processing

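With the GC and length trend removed 1 of the 42 genes (CDC25C) was called in place of 6, with KIF14, HMMR, AURKA and NUF2 between −0.99 and −0.92, and 706 of all genes in place of 795, of which 60.3% were higher in place of 79.5%. With the replicate number as a block besides, 1 of the 42 genes was called and 872 of all genes, of which 59.1% were higher. With that trend removed PLK1 was at −0.18, AURKB at −0.22, FOXM1 at −0.19 and INCENP at −0.27, below 0 where they had been above it. With the block added they were at −0.17, −0.22, −0.18 and −0.27. Called genes among the 42 ran from 0 to 9 with a library left out, and those of all genes from 8 to 1120. All genes called numbered 1647 with DESeq2, 1804 with a minimum of 1 read and 1685 with the replicate block. An adjusted p below 0.05 without a fold threshold gave 27 of the 42 genes and 4574 of all genes, and with an absolute log2 fold change above 1 it gave 2037 of all genes. BIRC5, at −0.01, crossed 0 with filterByExpr (0.051), with both strands (0.0099) and with the block (0.012), and lay between −0.198 and 0.057 with a library left out. AURKB was at −0.091 without sh-control replicate 1 and FOXM1 at −0.026 without sh-RREB1 replicate 2, and both were above 0 without each of the other libraries, up to 0.32 and 0.18. For none of these changes was the cause tested.

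The median log2 fold change of the 42 genes stayed below 0 in every alternative, between −0.70 (upper-quartile scaling) and −0.49, and with the trend removed 25 to 29 of them passed an adjusted p of 0.05 whichever library was left out (median −0.57 to −0.49). Same-numbered libraries of the groups deviated together for numbers 1 and 2 (correlations of 0.50 and 0.43 over 14356 genes) but not for number 3 (−0.28), so the numbers were not taken to pair libraries. Sh-control replicate 3 deviated most with sh-RREB1 replicate 2 (0.56). With the replicate block 6 of the 42 genes were called, 27 passed an adjusted p of 0.05 as lower and 5 as higher, in place of 26 and 1, and the median was −0.60. INCENP passed as higher with the block (0.50, edgeR adjusted p = 0.0314) and with filterByExpr (0.55, edgeR adjusted p = 0.0465), and as lower with the block and the trend removed (edgeR adjusted p = 0.0311). PLK1 passed as higher with the block, filterByExpr, DESeq2 and the merged table (adjusted p from 0.0311 with edgeR to 0.0461). Depth at the 42 genes was 250 reads or more in each library.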

Other observations

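WEE1 and PKMYT1, kinases that hold back mitotic entry, had values on opposite sides of 0. WEE1, the kinase that puts the inhibiting phosphate on CDK1, was at 113, 103 and 99.5 CPM in the sh-control libraries, against 89.3, 70.7 and 76.0 CPM in those labelled sh-RREB1 (log2 fold change −0.42, edgeR adjusted p = 0.0449). PKMYT1, the membrane-bound kinase of the same site, was at 4.0, 5.88 and 7.04 CPM against 11.6, 10.9 and 8.48 CPM (0.87, edgeR adjusted p = 0.0331). The groups did not overlap in either gene. PKMYT1 has 64.1% GC, and with the trend removed it was at −0.42 (edgeR adjusted p = 0.0963). WEE1 has 42.1% GC, and it was then at −0.23 (edgeR adjusted p = 0.0775), so both lay below 0, as did 6 of the 8 inhibitors tested. CDKN1A (p21), a target of p53, was at 42.8, 74.7 and 77.4 CPM against 76.6, 106 and 88.4 CPM, with overlapping groups.

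FZR1 (CDH1), the activator that keeps the APC/C working after mitosis, was at 1.91, 6.51 and 9.69 CPM in the sh-control libraries, against 18.8, 24.6 and 16.0 CPM in those labelled sh-RREB1 (log2 fold change 1.70, edgeR adjusted p = 0.0331), without overlap. Its exons have 63.5% GC, and the value was 0.54 with the trend removed (edgeR adjusted p = 0.0663). CDC20, the activator that it follows, was at −0.11 and −0.70. These genes were singled out after their values were seen.

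Reads on the opposite strand exceeded 2% of the reads of both strands in CCNA2, CDC25C and KIF20A among the 42 genes. For CCNA2 these were 7.68% to 10.7% of the reads of both strands in the 6 libraries, and for CDC25C 2.44% to 3.55% in sh-control and 7.31% to 11.6% in the libraries labelled sh-RREB1, where the sense reads were fewer. For KIF20A they were 4.63% to 6.18% in sh-control and 4.94% to 5.94% in the libraries labelled sh-RREB1.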
